A study of Mus musculus with 6 samples.

Results

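miR-202 is a microRNA (miRNA) of the gonads whose hairpin precursor gives a mature strand from each arm, miR-202-3p (mmu-miR-202-3p in the table) and miR-202-5p (mmu-miR-202-5p). Both were found by name among the 1573 known mouse miRNA rows of a small RNA count table and make up the 2 members described here. The table covers primary cultures of mouse testicular peritubular myoid cells, the contractile cells around the seminiferous tubules, from C57BL/6J mice. One group was exposed to 50 nM endothelin-1 (ET1), a peptide that contracts smooth muscle, for 5 min at 37 °C (3 libraries), and the other was left untreated (3 libraries). All cells had been cultured in DMEM/F12 with 10% fetal bovine serum. The comparison asks whether the small RNAs of these cells differ after a short exposure to ET1.

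miRNAs guide Argonaute proteins to messenger RNAs, mainly through the seed, the bases near the 5′ end of the mature strand, and so lower translation and mRNA stability. In the mouse, miR-202 is transcribed in the Sertoli cells of the developing testis downstream of SOX9, the transcription factor that sets up that cell type, and it is also used in the male germline. miR-202-3p is grouped with the let-7 family by its seed.

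The sequences below, from RefSeq on GRCm38.p6 and written 5′ to 3′, show where both arms lie in the hairpin (capitals in the first line) and how their seeds (bases 2 to 8, capitals in the others) compare with those of 3 let-7 miRNAs.
Mir202 hairpin: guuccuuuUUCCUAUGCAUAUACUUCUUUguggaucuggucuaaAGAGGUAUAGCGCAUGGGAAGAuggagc
miR-202-3p: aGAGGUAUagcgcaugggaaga
miR-202-5p: uUCCUAUGcauauacuucuuu
let-7d-5p: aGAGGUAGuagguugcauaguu
let-7c-5p: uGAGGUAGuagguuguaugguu
let-7j: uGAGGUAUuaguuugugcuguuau

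The hairpin of 72 bases lies on the minus strand of chromosome 7, from 139957689 to 139957760. Its 3p arm covers 139957695 to 139957716 and its 5p arm 139957732 to 139957752. In GENCODE M21 it falls inside an exon of the noncoding gene Gm2044 (139957005 to 139958039, same strand). It also lies in an intron of Gm16201, which is transcribed from the opposite strand. A second miRNA precursor, mmu-mir-7686, lies 67 bp away in an exon of Gm2044 as well. Its arms were nearly absent, with 41 tags of miR-7686-3p and 30 tags of miR-7686-5p over all 6 libraries, beside 40166 tags of miR-202-3p and 4133 tags of miR-202-5p. RNAfold predicted 18 base pairs between the miR-202 arms and a free energy of −35.5 kcal/mol for the hairpin. The 3p arm has 22 bases and 50.0% G and C, and the 5p arm 21 bases and 28.6%. The nearest other mature sequence differed from miR-202-3p by 8 edits (miR-1962) and from miR-202-5p by 7 (miR-6416-5p).

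Of the 1679 mature names in the reference, 12 share bases 2 to 7 with miR-202-3p and 0 with miR-202-5p. They are the let-7 miRNAs, miR-98-5p and miR-1961, the last of which is not analysed here. Only let-7j among the 12 also shares base 8 with miR-202-3p. The other 11 carry the substitution U8G, counted from 1 at the 5′ end with the miR-202-3p base first. Over the whole strand the likeness was low, as let-7d-5p matched miR-202-3p at 9 of 22 positions and let-7c-5p at 7 of 22.

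Libraries held 18127265 to 20895432 tags. Known miRNAs made up 22.6% to 25.5% of the tags in ET1 libraries and 30.1% to 45.6% in untreated libraries, and rRNA fragments 7.12% to 11.02% and 3.22% to 5.63%. Both shares therefore separated the groups, and their part in the values below cannot be told apart from that of ET1. With the share of known miRNA tags as a covariate, the log2 fold change of ET1 over untreated was 0.31 for miR-202-3p and 0.28 for miR-202-5p (edgeR adjusted p = 0.96 and 0.98). The part of the rRNA share was not tested. Of the lists of marker miRNAs, the smooth muscle list (miR-143, miR-145, miR-1a and miR-133a) summed to 14101 to 18421 CPM (tags per 1000000 known miRNA tags) in ET1 libraries and 19704 to 24100 in untreated libraries. Most of this was miR-143-3p, with means of 13453 CPM in ET1 and 19674 in untreated libraries. miR-145a-5p, the second most abundant row, was higher in ET1 on this scale, at 2759 and 2299 CPM, and its groups overlapped. Its edgeR log2 fold change was −0.11 (edgeR adjusted p = 0.88). miR-133a-3p averaged 94.4 and 213 CPM, and miR-1a-3p 2.86 and 5.31. miRNAs of X-linked clusters expressed in testis summed to 63539 to 109928 and 43631 to 78950 CPM. Whether each library had a culture or animal of its own is not stated in the labels, and p-values here measure library-to-library spread that may be technical.

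Both arms of miR-202 were well counted in every library. miR-202-3p had 2960, 8112 and 6603 tags in ET1 libraries 1, 2 and 3, and 9081, 8507 and 4903 tags in untreated libraries 1, 2 and 3. Scaled to known miRNA tags, its level was 639.6, 1851 and 1368 CPM in the ET1 libraries and 1119, 983 and 786 in the untreated libraries. ET1 library 2 was the highest and ET1 library 1 the lowest of the 6, so the untreated libraries fell inside the range of the ET1 libraries. By this level miR-202-3p ranked from place 50 to place 87 among the 1573 known miRNAs. Next to it in mean level stood miR-676-3p and miR-1198-5p just above, and miR-103-3p, a miRNA from introns of the Pank genes, and miR-2137 just below.

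miR-202-5p had 345, 905 and 668 tags in ET1 libraries 1, 2 and 3, and 770, 879 and 566 tags in untreated libraries 1, 2 and 3. This was 74.5, 207 and 138 CPM in the ET1 libraries, and 94.9, 102 and 90.7 in the untreated libraries. As for the other arm, the highest and the lowest value were those of ET1 libraries 2 and 1. Its rank ran from place 131 to place 200. Its neighbours in mean level were miR-370-3p and miR-382-5p, both of the imprinted Dlk1-Dio3 cluster, just above, and miR-185-5p and miR-330-5p just below.

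**Figure D1:**
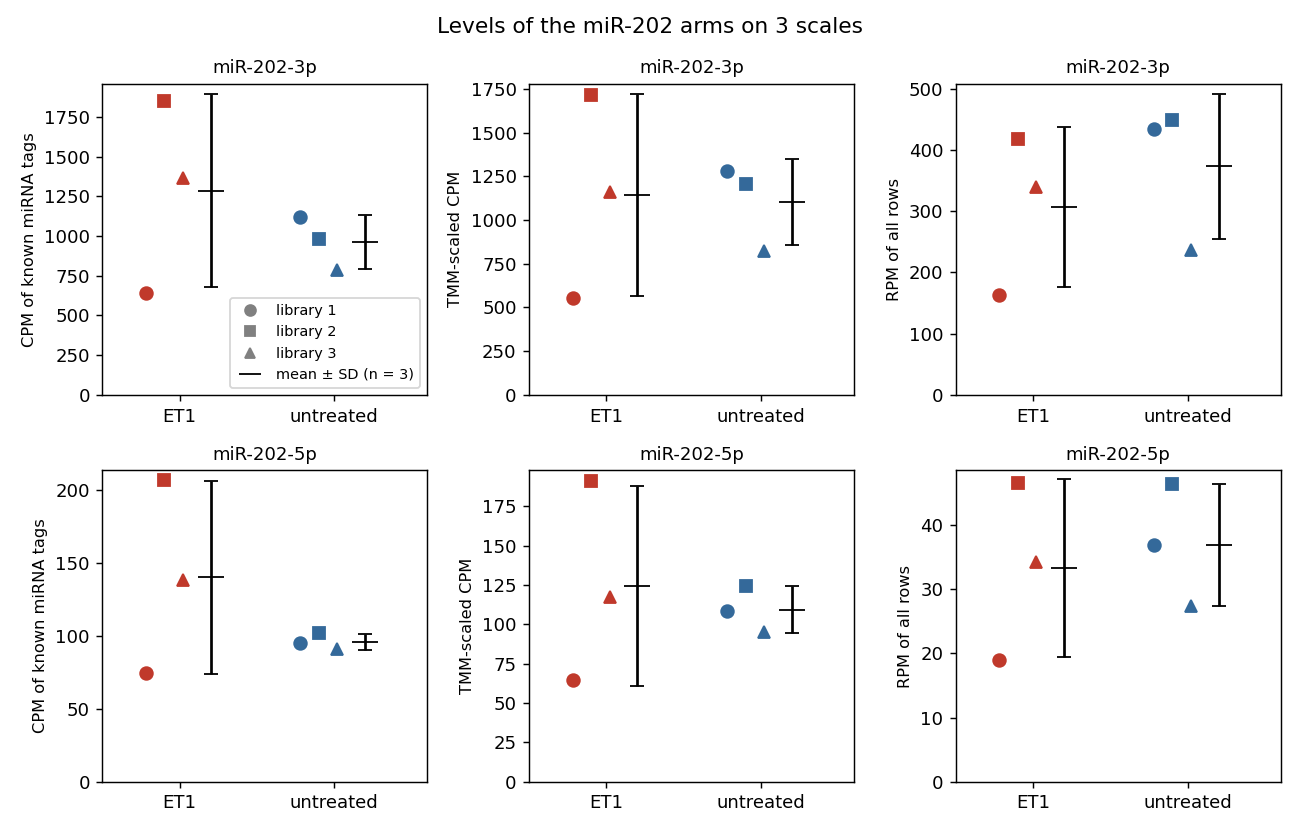
Level of miR-202-3p (upper row) and miR-202-5p (lower row) in each library, as CPM of known miRNA tags, as TMM-scaled CPM, and as RPM, tags per 1000000 tags of all rows; points are libraries and bars mean ± SD (n = 3). On each scale the points of the groups overlap, and ET1 library 1 is the lowest of all 6.

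Neither arm passed the test for a difference between ET1 and untreated cells. On the scale of known miRNA tags miR-202-3p averaged 1286 ± 610.0 CPM in ET1 and 963 ± 168 in untreated libraries, and miR-202-5p 139.8 ± 66.0 and 95.7 ± 5.50 (SD, n = 3 libraries each). After TMM scaling, which sets library sizes so that most miRNAs do not differ, the log2 fold change of ET1 over untreated was 0.052 for miR-202-3p (SE 0.41, 95% interval −0.84 to 0.94; edgeR adjusted p = 0.96). For miR-202-5p it was 0.19 (SE 0.45, 95% interval −0.78 to 1.15; edgeR adjusted p = 0.87). Of the 616 known miRNAs tested together, 11 passed, or 1.79%, and 0 of the 2 members were among them; 113 of the 616 and neither arm had an unadjusted p under 0.05. Of 15 other settings, which included DESeq2 and limma-voom, none called either arm. The intervals reach about 1 log2 unit to each side of 0, so with 3 libraries a group a change inside them is not excluded. They are not adjusted for the 616 tests, and a call can need a larger change. miR-676-3p, next to miR-202-3p in mean level, did not pass at −1.22 (SE 0.35, edgeR adjusted p = 0.083).

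The sign of the difference changed with the scale and, after TMM scaling, also with the way of averaging. There the mean of both arms summed was higher in ET1 and the mean of its log2 values lower. For both arms summed, the mean level was 1426 ± 675 in ET1 against 1059 ± 171 in untreated libraries in CPM of known miRNA tags, a log2 difference of 0.31 (mean of log2 values; exact permutation p = 0.5). Scaled to the tags of all rows it was 339.9 ± 144 RPM against 410.1 ± 127 RPM, a log2 difference of −0.32 (exact permutation p = 0.5). With TMM scaling it was 1267 ± 642 against 1212 ± 257 TMM-scaled CPM, a log2 difference of −0.056 (exact permutation p = 0.8, n = 3 each and two-sided throughout; with 3 against 3 no p can go below 0.1). The scales differ in their denominators: known miRNA tags, the tags of all rows, and known miRNA tags multiplied by TMM factors of 1.08 to 1.18 in ET1 and 0.816 to 0.955 in untreated libraries. With library sizes alone, the median log2 fold change of all 616 miRNAs was 0.37, against 0.42 for miR-202-3p and 0.55 for miR-202-5p. With all named small RNAs fitted together the median was −0.46, against −0.45 and −0.30.

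ET1 libraries 1 and 2 decided where the ET1 mean stood. Without ET1 library 2 the log2 fold change was −0.40 for miR-202-3p and −0.30 for miR-202-5p. Without ET1 library 1 it was 0.36 and 0.48 (edgeR adjusted p from 0.60 to 0.82 in these 4 fits). The sign of miR-202-3p also turned without untreated library 3, at −0.10.

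**Figure D2:**
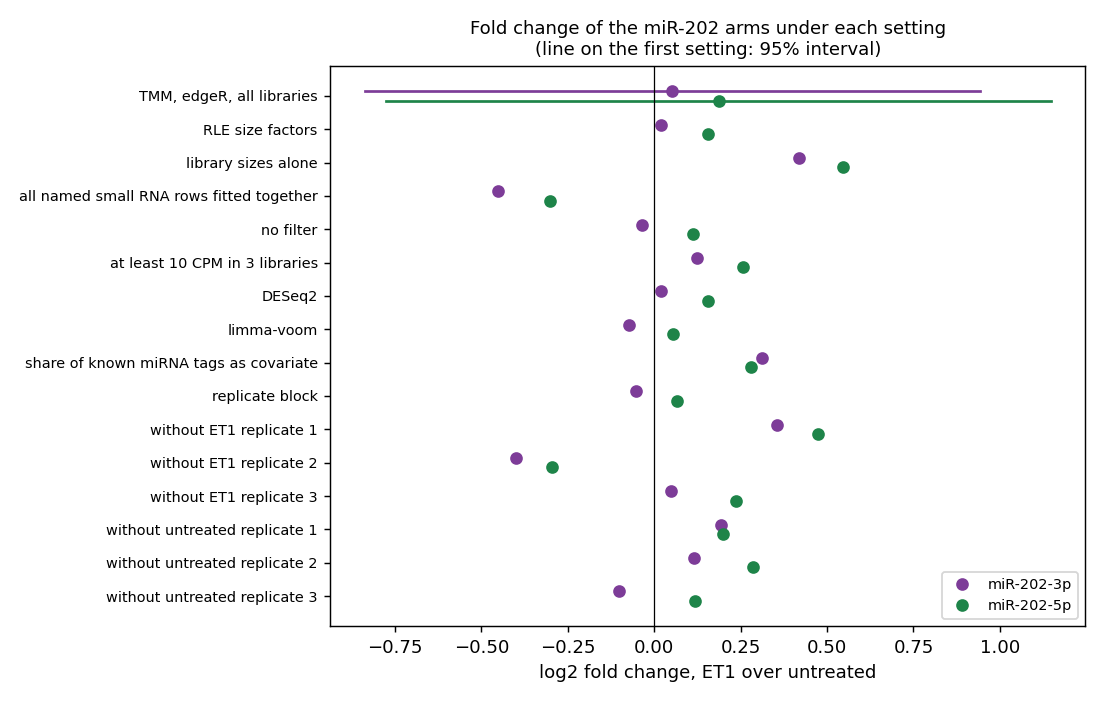
Log2 fold change of ET1 over untreated for miR-202-3p and miR-202-5p under each setting, with the 95% interval of the edgeR fit on all libraries in the first line. Values lie on both sides of 0, from −0.45 to 0.42 for miR-202-3p and from −0.30 to 0.55 for miR-202-5p.

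The spread of miR-202 was wide among the ET1 libraries and narrow among the untreated ones. The highest ET1 library held 2.89 times the miR-202-3p level of the lowest, in CPM of known miRNA tags, against 1.42 times among untreated libraries. For 45 tested miRNAs within a factor of 2 of its mean level the median of this ratio was 1.85 in ET1 and 1.71 in untreated libraries. Of these 45, 7 spread more widely than miR-202-3p among ET1 libraries and 36 among untreated libraries. For miR-202-5p the ratio was 2.77 in ET1 and 1.12 in untreated libraries, against medians of 1.76 and 1.95 for 94 miRNAs of like level. Of these 94, 19 spread more widely than miR-202-5p among ET1 libraries and 92 among untreated libraries. ET1 library 1, the lowest for both arms, was also the lowest ET1 library for 10 of the 45 and 36 of the 94.

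The authors' deposited table of the comparison, named for DEGseq, marks both arms as up in ET1. In the authors' deposited table the counts summed over 3 libraries were 17675 in ET1 and 22491 in untreated for miR-202-3p, and 1918 and 2215 for miR-202-5p. The log2 ratio there was 0.35 for miR-202-3p (deposited q-value 3.13e-132) and 0.49 for miR-202-5p (deposited q-value 3.35e-28). The log2 ratio of those summed counts themselves was −0.35 and −0.21, which lay 0.70 below the authors' deposited table for both arms. In the authors' deposited table the mean expression, an RPM of all rows, was 306 in ET1 and 373 in untreated libraries for miR-202-3p, and 33.3 and 36.8 for miR-202-5p. A test on summed counts does not see how the libraries of a group differ. Of the 1327 rows of the authors' deposited table with a q-value, 70.2% had one under 0.05, and 51.2% had one under 0.05 with a ratio above 0, so a call there was common.

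The 3p arm made up most of the miR-202 tags in every library, and the balance of the arms did not pass a test for a difference between groups. It held 89.6% of the tags of both arms in ET1 library 1 (95% Wilson interval 88.5 to 90.6), 89.96% in ET1 library 2 (89.3 to 90.6) and 90.8% in ET1 library 3 (90.1 to 91.5). In untreated libraries 1, 2 and 3 it held 92.2% (91.6 to 92.7), 90.6% (90.03 to 91.2) and 89.7% (88.8 to 90.4). The interval of untreated library 1 lay above those of the other 5, all of which overlapped one another. These intervals cover counting error only, as the tags carry no molecular identifiers.

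As a ratio, the 3p arm outnumbered the 5p arm 8.58, 8.96 and 9.88 times in ET1 libraries 1, 2 and 3, and 11.8, 9.68 and 8.66 times in untreated libraries 1, 2 and 3. The means were 9.14 ± 0.671 in ET1 and 10.04 ± 1.60 in untreated libraries (SD, n = 3 each). The groups overlapped. The log2 difference of ET1 minus untreated was −0.13 (SE 0.39, 95% interval −1.02 to 0.77; limma adjusted p = 0.97 over 261 hairpins; exact permutation p = 0.6, two-sided). Of the 261 hairpins with at least 10 tags of each arm, 0% passed in limma, 35 had an unadjusted p under 0.05, and edgeR with an interaction of arm and treatment also called 0. Scaling between libraries cancels in this ratio.

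Among hairpins miR-202 leaned clearly to its 3p arm. Its mean log2 ratio of 3p to 5p was 3.25, higher than in 207 of the 261 hairpins and lower than in 53. The 3p arm was the more abundant in 124 hairpins and the 5p arm in 137. Next to miR-202 in this order stood miR-92b (3.19) and miR-1193 (3.21) below, and miR-3084 (3.26) and miR-668 (3.38) above.

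The arm ratio of miR-202 was among the steadiest, while its level spread widely among the ET1 libraries. The within-group SD of its log2 ratio was 0.18, against a median of 0.61 for the 103 hairpins with at least 10 tags of each arm in every library. In 2 of them, miR-139 and miR-22, it was smaller. Limited to the 25 hairpins whose rarer arm had at least as many tags as miR-202-5p, a limit chosen after the values were seen, the median was 0.55 and the same 2 were smaller. Across the 6 libraries the log2 TMM-scaled CPM of both arms had a Pearson correlation of 0.95, against a median of 0.31 over the 103 hairpins. It was higher in 2, miR-139 and miR-342. The points share their library, depth and scaling factor, so the correlation is given as a description.

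**Figure D3:**
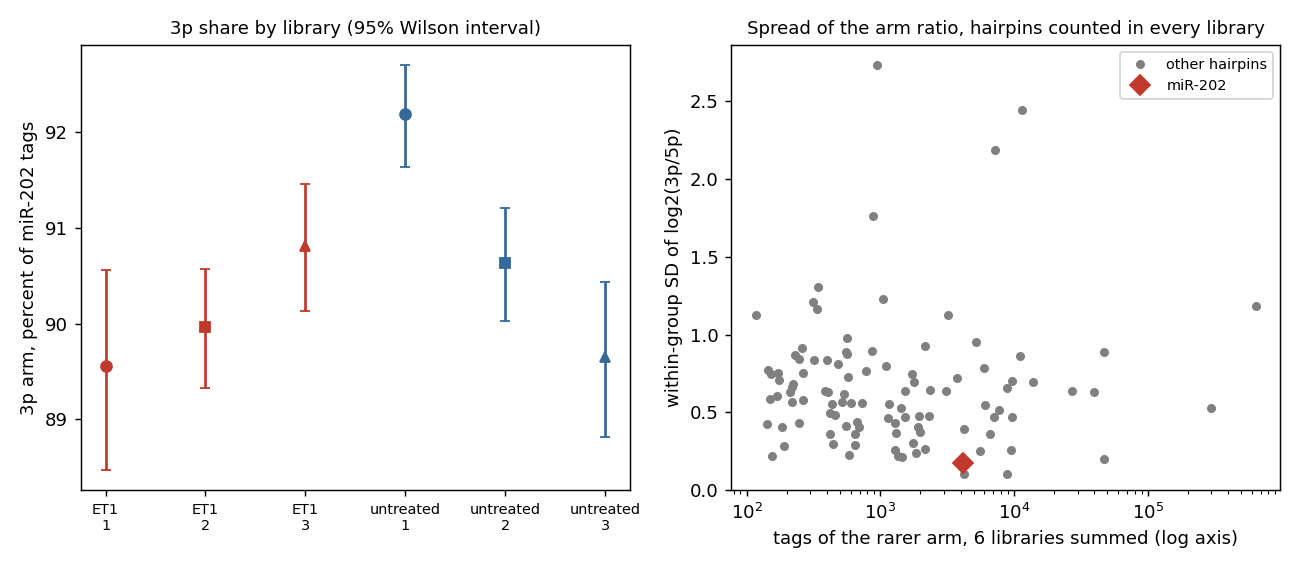
Left, the 3p arm as percent of miR-202 tags in each library with its 95% Wilson interval, on an axis that does not start at 0; all 6 libraries lie between 89.6% and 92.2%. Right, the within-group SD of the log2 ratio of 3p to 5p against the tags of the rarer arm (log axis) for the 103 hairpins counted in every library, with miR-202 at 0.18 near the lower edge.

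Against the epithelial miRNAs, miR-202 was the more abundant in every library. That list held 18 rows of the miR-200 family (miR-200a, miR-200b, miR-200c, miR-141 and miR-429), which maintains the epithelial state by repressing the ZEB factors, of the miR-183 cluster (miR-183, miR-96 and miR-182), and of miR-203 and miR-205, miRNAs of stratified epithelium. Its summed level was 393, 344 and 319.8 CPM in ET1 libraries 1, 2 and 3, and 524, 593 and 416 in untreated libraries 1, 2 and 3. Both arms of miR-202 summed to 714, 2058 and 1507 CPM in the ET1 libraries and 1214, 1085 and 876 in the untreated libraries. All mature strands compared here are of nearly the same length, so no correction for length was made.

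miR-202 thus stood at 1.82, 5.98 and 4.71 times the epithelial sum in ET1 libraries 1, 2 and 3, and at 2.32, 1.83 and 2.11 times in untreated libraries 1, 2 and 3. ET1 libraries 2 and 3 were higher than every untreated library and ET1 library 1 was lower than all of them, so the groups overlapped. The mean ratio was 4.17 ± 2.14 in ET1 and 2.09 ± 0.244 in untreated libraries (SD, n = 3 each). The log2 difference was 0.84 (exact permutation p = 0.4, two-sided). It was 0.50 without ET1 library 2 and 1.35 without ET1 library 1 (exact permutation p = 0.8 and 0.2). With 2 against 3 libraries no p can go below 0.2, and without ET1 library 1 the groups did not overlap. Here too scaling between libraries cancels, and the rise or fall of either side of the ratio is not told apart by it. In CPM of known miRNA tags the epithelial sum was 319.8 to 393 in ET1 and 416 to 593 in untreated libraries, without overlap. The sum of both miR-202 arms overlapped between the groups on that scale.

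By single rows, miR-202-3p lay above all 18 epithelial rows in all 6 libraries. The highest of these rows in each library was miR-183-5p. miR-202-3p stood at 4.09, 20.9 and 11.9 times its level in ET1 libraries 1, 2 and 3, and at 4.68, 7.77 and 4.69 times in untreated libraries 1, 2 and 3. miR-202-5p was nearer to it, at 0.477, 2.33 and 1.20 times in the ET1 libraries and 0.396, 0.803 and 0.541 times in the untreated libraries. It lay above every epithelial row in ET1 libraries 2 and 3, and below 1 or 2 rows in each of the other 4 libraries.

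None of the 13 epithelial rows that entered the test passed, and all 13 log2 fold changes were negative (median −0.88), beside 305 negative of 616 and a median of 0.0058 over all miRNAs tested. With library sizes alone 12 of the 13 were negative, with a median of −0.52, beside 186 negative of 616 and a median of 0.37. miR-183-5p averaged 120.1 ± 34.0 CPM in ET1 and 178 ± 57.1 in untreated libraries (log2 fold change −0.94, edgeR adjusted p = 0.24). miR-182-5p, from the same cluster, averaged 65.5 ± 21.0 and 89.4 ± 26.0 CPM (−0.82, edgeR adjusted p = 0.35). miR-200b-3p averaged 40.9 ± 12.5 in ET1 and 61.7 ± 38.9 in untreated libraries, with untreated library 2 the highest (−0.99, edgeR adjusted p = 0.36). miR-203-3p averaged 31.7 ± 14.5 and 48.6 ± 34.9 CPM (−1.02, edgeR adjusted p = 0.37). The rows of miR-141-5p, miR-200c-5p and miR-96-3p were at 0 in all libraries, and miR-205-5p was at 1.40 ± 0.939 and 0.758 ± 0.594 CPM.

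The ratio to the miR-200 family alone was 6.14, 13.9 and 15.2 in ET1 libraries 1, 2 and 3, and 10.4, 3.61 and 7.22 in untreated libraries 1, 2 and 3. Untreated library 2, the lowest, had 300.3 CPM of the miR-200 family, against 99.1 to 149 in the ET1 and 116.7 to 121 in the other untreated libraries. The ratio to the miR-183 cluster was 2.84, 14.5 and 7.74 in the ET1 libraries and 3.26, 5.50 and 3.29 in the untreated libraries. The log2 differences were 0.75 and 0.81 (exact permutation p = 0.3 and 0.4). In RNA from a whole culture, fewer cells of a type and less of an RNA per cell cannot be told apart.

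**Figure D4:**
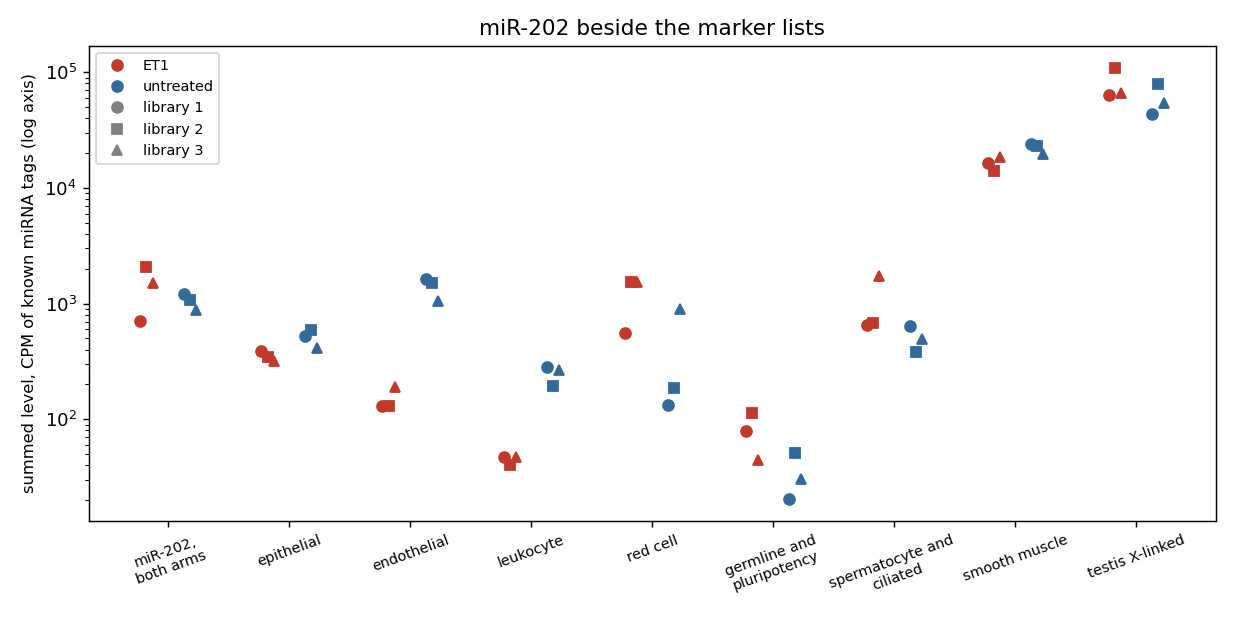
Summed level in CPM of known miRNA tags (log axis) of both miR-202 arms and of 8 lists of marker miRNAs in each library, ET1 left and untreated right within each column. miR-202 lies above the epithelial list in each library, and well below the smooth muscle and testis X-linked lists.

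Single rows of 3 other marker lists passed the test between the groups, which miR-202 did not. The endothelial list (miR-126a and miR-126b, 4 rows) summed to 131 to 192 CPM in ET1 and 1058 to 1647 in untreated libraries, and of its 2 tested rows miR-126a-3p fell (log2 fold change −3.61, edgeR adjusted p = 0.00019). miR-202 stood above this list in every ET1 library and below it in untreated libraries 1, 2 and 3. The leukocyte list (miR-150, miR-142a and miR-223, 6 rows) summed to 39.9 to 47.3 and 194 to 283 CPM, and of its 2 tested rows miR-150-5p, a lymphocyte miRNA, fell (−3.45, edgeR adjusted p = 0.00036). The other tested row, miR-223-3p of myeloid cells, was at 12.3 ± 5.27 CPM in ET1 and 7.54 ± 5.99 in untreated libraries (0.29, edgeR adjusted p = 0.85). miR-142a-3p, too scarce for the test, was at 2.34 ± 0.784 and 0.513 ± 0.484 CPM, so the list's lower sum in ET1 was that of miR-150-5p and not of its other members named here. The red cell list (6 rows) summed to 554 to 1549 and 134 to 898 CPM, and of its 4 tested rows the one of miR-486a-5p and miR-486b-5p rose (2.41, edgeR adjusted p = 0.024). Of the other 3, 2 were positive and did not pass, and miR-451a, the second most abundant, was at 206 ± 146 CPM in ET1 and 253 ± 338 in untreated libraries, which overlapped (−0.56, edgeR adjusted p = 0.87). The calls of miR-126a-3p, miR-150-5p and miR-486 did not hold with all named small RNAs fitted together, where the log2 fold changes were −4.15, −3.92 and 2.04 (edgeR adjusted p = 0.094, 0.094 and 0.26). Nor did they hold with the share of known miRNA tags as a covariate, at −2.91, −3.69 and 1.47 (edgeR adjusted p = 0.094, 0.056 and 0.69). That of miR-486 was also lost without ET1 library 3 (edgeR adjusted p = 0.052) and without untreated library 2 (0.12). The part of these cell types in the level of miR-202 was not tested, and mRNA markers of Sertoli cells, such as Sox9, are not analysed here.

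Of the germ cell lists, the spermatocyte and ciliated list (miR-34b, miR-34c and miR-449, 9 rows, 2 at 0) summed to 659 to 1745 CPM in ET1 and 380.2 to 634 in untreated libraries, led by miR-34c-3p. The germline and pluripotency list (miR-290 to miR-295, 17 rows, 3 at 0 in all libraries: miR-291a-3p, miR-291b-3p and miR-294-5p) summed to 44.1 to 114 and 20.5 to 50.9 CPM, led by miR-292a-3p. All 5 tested rows of each list were positive and none passed, beside 311 positive of the 616 miRNAs tested. With all named small RNAs fitted together 2 of the 5 were negative in each list, beside 422 negative of the 616. With library sizes alone all 5 of each list were positive, beside 186 negative of the 616. In that setting 41 of the 616 were called. They included 2 rows of the spermatocyte and ciliated list and 1 of the germline and pluripotency list. Of 21 tested rows of the testis X-linked list, led by miR-470-5p, 6 were positive, 15 negative and none passed. The median log2 fold change of the 21 was −0.26, beside 0.0058 over all 616. With library sizes alone 10 of these 21 were negative with a median of 0.031, beside 186 negative of the 616 and a median of 0.37. With all named small RNAs fitted together 18 were negative with a median of −0.85, beside 422 of the 616 and a median of −0.46. The sign of the list's median turned with the scale, but on each of these scales it lay below the median of all tested miRNAs.

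miR-202-3p was a small part of the miRNAs that share its bases 2 to 7. The 11 of these in the table summed to 404499, 395578 and 344135 CPM in ET1 libraries 1, 2 and 3, and 455776, 457850 and 327284 in untreated libraries 1, 2 and 3. Of the seed group with itself included, miR-202-3p made up 0.158%, 0.466% and 0.396% in the ET1 libraries and 0.245%, 0.214% and 0.239% in the untreated libraries. ET1 libraries 2 and 3 had the highest shares and ET1 library 1 the lowest, so the groups overlapped. let-7c-5p, the most abundant, averaged 165631 ± 16175 CPM in ET1 and 172623 ± 38066 in untreated libraries, and let-7d-5p 13899.7 ± 1271 and 18967 ± 5050. let-7j, whose bases 2 to 8 are those of miR-202-3p, averaged 28.7 ± 11.5 and 29.4 ± 7.76 CPM, far under miR-202-3p.

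None of the 11 passed, and all 11 log2 fold changes were negative (median −0.84), beside 305 negative of 616 over all miRNAs tested. With library sizes alone 10 of the 11 were negative with a median of −0.45, beside 186 negative of 616 and a median of 0.37. The values were −0.44 for let-7c-5p, −0.33 for let-7b-5p, −0.94 for let-7a-5p, −0.84 for let-7d-5p and −0.52 for let-7e-5p, against 0.052 for miR-202-3p on the same scale. let-7 counts are uncertain for single members, since their sequences are nearly the same and how tags with several matches were assigned is not given in the sources used here. miR-202-3p, 8 edits from its nearest neighbour, is not near-identical to any of them.

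**Figure D5:**
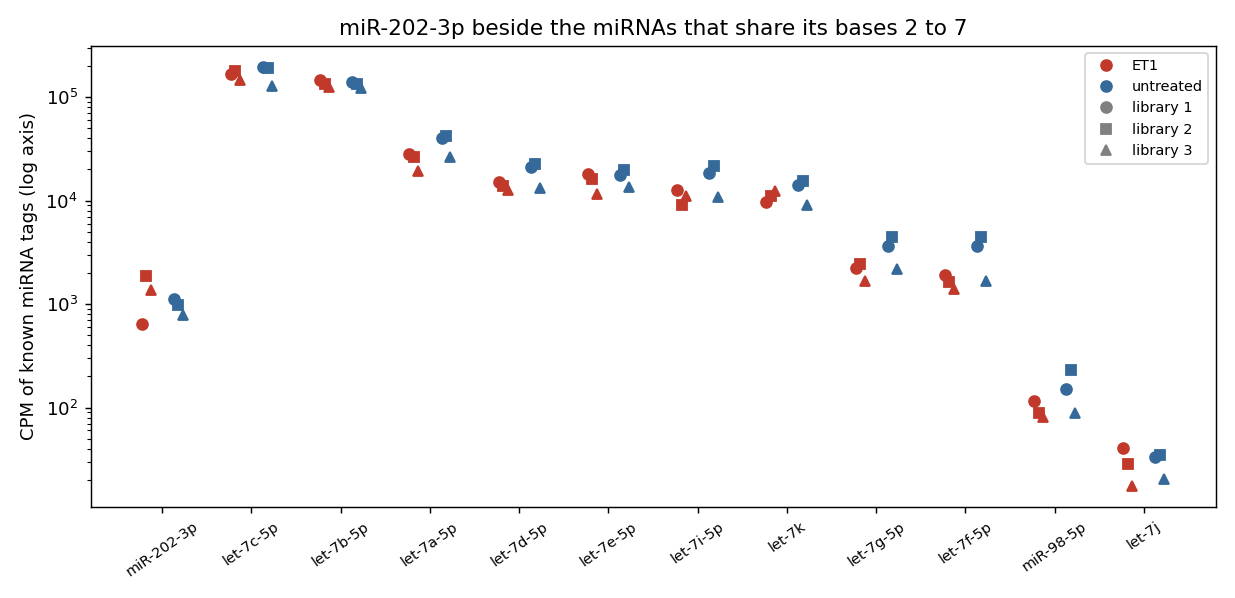
Level in CPM of known miRNA tags (log axis) of miR-202-3p and of the 11 miRNAs that share its bases 2 to 7 in each library, ET1 left and untreated right within each column. In each library miR-202-3p lies above miR-98-5p and let-7j and under the others, except let-7f-5p in ET1 library 2 (1647 against 1851 CPM).

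Over the 6 libraries the pattern of each arm was most like that of the other arm and of 2 further miRNAs, among 615 compared by the Pearson correlation of log2(TMM-scaled CPM + 1). For miR-202-3p these were let-7c-1-3p (0.97), miR-202-5p (0.95) and miR-322-3p (0.94). For miR-202-5p they were miR-202-3p (0.95), let-7c-1-3p (0.91) and miR-322-3p (0.90). miR-322-3p, from the cluster with miR-503, stood at 30.5, 87.6 and 63.8 CPM in ET1 libraries 1, 2 and 3, and at 56.8, 65.9 and 45.7 in untreated libraries 1, 2 and 3, again with ET1 library 1 lowest and ET1 library 2 highest. let-7c-1-3p, a passenger strand, was scarce, with 5 to 25 tags in a library. The correlations are descriptions over 6 libraries that share depth and scaling.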

How the data were processed

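Small RNAs were counted in 3 ET1 and 3 untreated libraries. Per the labels' protocols, total RNA was isolated using TRNzol and made into libraries by BGI's protocol. The aligner Bowtie2 and build mm10 are named per the submitters' processing notes; annotation sets, mismatches and the treatment of multiply matching tags are not given in the sources used here. Per the file headers, the authors deposited raw tag counts per small RNA row, and beside each a value under the heading TPM that is by its size an RPM (tags per 1000000 tags of all rows). They also deposited a comparison table with summed counts, mean RPM, a log2 ratio, p-values and q-values, whose settings are not given.

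Known miRNA rows were tested on counts with edgeR 4.0.16 (R 4.3.3): TMM, default expression filter, robust quasi-likelihood test of the group, two-sided, Benjamini-Hochberg over 616 rows, threshold 0.05. CPM are tags per 1000000 known miRNA tags, without TMM unless called TMM-scaled. Arm ratios, log2((3p + 0.5)/(5p + 0.5)), were tested with limma 3.58.1 over 261 hairpins. Single values were compared by exact permutation over libraries (scipy 1.17.1). RNAfold 2.7.2 folded the hairpin. Tests were checked on simulated data. Every pair of arms was matched by its full name.

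Alternatives were other scalings, filters and tools (DESeq2 1.42.0, limma-voom), a covariate, a replicate block and leaving out each library. The 4 rows that total exonic, intronic, intergenic and repeat tags (44.3% to 61.4% of tags) entered no fit. The members and marker lists were chosen with earlier results of these data known. Beyond both arms, miRNAs named were the 4 most abundant epithelial rows, the 2 nearest in level above and below each arm, the 5 most abundant sharing bases 2 to 7, the most abundant row of each list, the 3 most correlated with each arm and the 2 hairpins nearest above and below in arm ratio; others named, such as let-7j, miR-205-5p and the hairpins steadier than miR-202, were chosen after their values were seen.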

Additional observations from a re-analysis of the deposited data

How the results depend on the processing

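Neither arm of miR-202, nor their ratio in limma or edgeR, passed its test under any setting tried; the sum of the arms and the ratio to the epithelial sum had an exact permutation test that cannot go below 0.1, so it says nothing of their stability. The log2 fold change of miR-202-3p (0.052 with all libraries) turned to −0.45 with all named rows fitted together, −0.035 without a filter, −0.072 in limma-voom and −0.052 with the replicate block, and ran from −0.40 to 0.36 with 1 library left out. That of miR-202-5p (0.19) turned to −0.30 with all named rows fitted together and ran from −0.30 to 0.48 with 1 library left out; with the replicate block it was 0.065. The log2 difference of both arms summed (0.31 in CPM of known miRNA tags) turned to −0.32 in RPM of all tags and −0.056 after TMM, and ran from −0.016 to 0.75 with 1 library left out. The arm ratio kept its sign in 12 alternatives (−0.23 to −0.0049 with 1 library left out), and so did the ratio to the epithelial sum (0.50 to 1.35). The count of called miRNAs, 11 in edgeR, was 41 with library sizes alone, 37 without a filter, 39 in DESeq2, 21 with the replicate block and 0 both with all named rows fitted together (116 at an unadjusted p under 0.05 in edgeR) and with the miRNA share as a covariate (39 in edgeR), and leaving out single libraries gave 2 to 30 (30 without ET1 library 1, 25 without untreated library 3, 5 without untreated library 2 and 2 without ET1 library 3). The cause of these moves was not tested. Whether libraries of the same number in both groups share a pair or a batch is not stated in the labels. Their deviations from the group means correlated at 0.29, 0.069 and 0.28, each the highest for its library. Between libraries of unlike number the correlations ran from −0.25 to −0.00031.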

Other observations

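The Rfam row for the miR-202 precursor family held 1 tag in ET1 library 1 and 0 in each of the other 5 libraries, beside 3305 tags of the mature arms in ET1 library 1. The miRNA precursor next to Mir202, mmu-mir-7686, gave 9, 3 and 13 tags of miR-7686-5p in ET1 libraries 1, 2 and 3, and 0, 0 and 5 in untreated libraries 1, 2 and 3. Its miR-7686-3p gave 4, 3 and 11 tags in the ET1 libraries and 11, 7 and 5 in the untreated libraries.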
